A study of Mus musculus with 9 samples.

Results

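Prostaglandins and leukotrienes are made from arachidonic acid, and the messenger RNAs of 10 genes of this synthesis were followed here in BV2 cells. The genes were chosen by name, for the step their protein carries out, from the 54532 genes of the deposited expression table. Earlier results of these data were known when the choice was made. They are Pla2g4a, which frees the fatty acid, Ptgs1 and Ptgs2, the cyclooxygenases, Ptges, Ptges2, Hpgds and Tbxas1, which finish single prostanoids, and Alox5, Alox5ap and Lta4h of the leukotriene branch.

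BV2 is an immortalized mouse microglial line, and the experiment served to ask which genes oxygen-glucose deprivation (OGD) changes and which of these changes an inhibitor of the histone acetyltransferase P300 alters. The control group was grown in complete medium with 10% fetal bovine serum. The OGD group was moved to low-glucose medium with 4% serum in a chamber with 4% oxygen. The OGD + A-485 group had the same deprivation with the P300 inhibitor A-485, for which the methods give 50 μM from the start of OGD and a duration of 24 h in the experiments that preceded the transcriptome, but do not repeat dose and time for it. Each group had 3 RNA-seq libraries, and no group had A-485 without OGD, so an effect of the inhibitor on its own cannot be told apart from its effect on deprived cells. Likewise the drop in oxygen, glucose and serum came together.

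The values are FPKM, that is reads on a gene per kilobase of its length, so levels can be compared between genes. They are scaled by a median-of-ratios size factor of the library, which stands in for its depth. Libraries held 12593250 to 16091038 reads on genes, and 1 read on a gene of 1 kb was worth 0.0618 to 0.0786 FPKM. Replicates differed by more than the noise of counting (chi-square per degree of freedom 2.80 to 5.73). Whether they were separate cultures is not given, so the p-values measure the spread between these libraries. Of 14 microglial and macrophage markers 10 had a mean of at least 1 FPKM in control cells, while Sall1, P2ry12 and Fcrls, markers of microglia in the brain, were at or near 0 there. Summed over the list, control libraries reached 471 to 488 FPKM, OGD libraries 603 to 622 and A-485 libraries 1080 to 1109. It moved with the groups, and its part in the results on the 10 genes was not tested. Markers of mast cells, another source of prostaglandin D2 and leukotrienes, summed to at most 0.125 FPKM in any library.

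In the textbook pathway, cytosolic phospholipase A2 cuts arachidonic acid out of membrane phospholipids. Cyclooxygenases turn it into prostaglandin H2, from which separate synthases make prostaglandin E2, prostaglandin D2 and thromboxane. In the other branch, 5-lipoxygenase works with its membrane partner FLAP to make leukotriene A4, which is turned into leukotriene B4 or into the cysteinyl leukotrienes. Microglia and macrophages are known for making prostanoids when inflamed, and cyclooxygenase-2 is the target of anti-inflammatory drugs.

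Ptgs2, Ptgs1 and Ptges, the genes of the cyclooxygenase and prostaglandin E2 steps, passed the test in every comparison, as did Alox5ap. The promoters of these 3 genes are shown because their messages differed between all groups; Alox5ap had no entry in the table of promoters. Each window runs from 250 bases before the RefSeq start site to 50 bases from it on (GRCm38.p6), 5′ to 3′ on the strand of the gene. Ptgs2 lies at chr1:150099781-150100080 on the plus strand, Ptgs1 at chr2:36230176-36230475 on the plus strand and Ptges at chr2:30903248-30903547 on the minus strand. Capitals mark matches to the motifs searched on both strands.
Ptgs2: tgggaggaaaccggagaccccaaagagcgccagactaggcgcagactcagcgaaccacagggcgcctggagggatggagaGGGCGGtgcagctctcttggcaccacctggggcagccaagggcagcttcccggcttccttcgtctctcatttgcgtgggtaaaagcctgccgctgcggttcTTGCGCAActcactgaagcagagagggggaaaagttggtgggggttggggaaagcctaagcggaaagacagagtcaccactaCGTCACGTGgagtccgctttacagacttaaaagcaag
Ptgs1: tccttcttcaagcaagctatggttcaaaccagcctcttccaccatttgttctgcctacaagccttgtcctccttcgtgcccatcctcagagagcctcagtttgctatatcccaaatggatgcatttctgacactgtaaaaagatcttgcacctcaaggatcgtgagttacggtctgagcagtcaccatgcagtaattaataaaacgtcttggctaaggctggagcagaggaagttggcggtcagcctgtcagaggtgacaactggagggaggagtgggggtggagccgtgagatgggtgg
Ptges: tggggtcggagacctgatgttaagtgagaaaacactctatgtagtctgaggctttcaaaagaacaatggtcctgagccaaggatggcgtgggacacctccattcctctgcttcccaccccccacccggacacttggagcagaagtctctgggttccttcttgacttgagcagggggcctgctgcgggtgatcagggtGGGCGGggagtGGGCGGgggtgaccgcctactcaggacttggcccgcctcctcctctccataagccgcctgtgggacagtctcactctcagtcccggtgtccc

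The Ptgs2 window (GC content 59.3%) held the letters of a cyclic AMP response half-site, CGTCA, from position 14 counted from 1 at the start site. They shared 2 bases with an E-box, CACGTG, at position 17, which holds the hypoxia response core ACGTG on both strands. A GC box, GGGCGG, began 170 bases before the start, and the C/EBP palindrome TTGCGCAA began 69 bases before it. The palindrome was present in 0.183% of 32851 RefSeq promoters of this length, compared to 20.8% for CGTCA, 7.15% for CACGTG, 19.6% for ACGTG and 35.7% for GGGCGG. The Ptges window (GC content 60%) held GC boxes 53 and 42 bases before its start, which lies 26566 bp inside the edge of the deposited gene. The Ptgs1 window (GC content 50.7%) had no match to these motifs. Of the 9 members with a promoter entry, Alox5 also had a GC box, Ptges2 also had an E-box, and Tbxas1 had the letters TATAAA, found in 13.6% of promoters. The NF-kB motif, found in 8.46% of promoters, was in none of the 9 windows. These are matches of letters in short windows and show no binding.

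For the tests, a gene entered the fit when its mean over the 9 libraries was at least 0.2 FPKM, which 16123 genes and 9 of the 10 members did. Tbxas1 stayed below with 0.138 FPKM. A difference was called when limma gave an unadjusted p under 0.01 and the change in log2(FPKM + 0.1) was larger than 0.5 in size, and adjusted p-values (Benjamini-Hochberg) are over all genes tested. The 3 comparisons use the same 9 libraries and pairwise share a group, so they are not independent of each other.

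Compared to control, OGD raised 4 members, Ptgs2, Ptgs1, Ptges and Alox5ap, and no member was called lower. Over all genes tested 11.2% were called higher, 9.81% lower and 21.0% either way. The OGD libraries lay wholly above the control libraries for 7 of the 10 members and wholly below for 1, compared to 28.0% and 27.5% of all genes and 55.4% without overlap in either direction. Compared to OGD, the A-485 group had 3 members called lower, Ptgs2, Ptgs1 and Ptges, and 1 called higher, Alox5ap, compared to 13.4% and 12.2% of all genes and 25.7% either way. Here 4 members were wholly above and 4 wholly below, while of all genes 28.5% were above, 28.3% below and 56.8% without overlap. Set against control, OGD + A-485 had Ptgs2 and Alox5ap called higher and Ptgs1 and Ptges lower, where 17.0% of all genes were called higher, 16.6% lower and 33.7% either way. Without overlap were 5 members above and 4 below, compared to 31.8% and 32.0% of all genes and 63.8% in all. The median change of the 10 members was 0.25 for OGD against control, 0.02 for A-485 against OGD and 0.05 for A-485 against control on the log2 scale, and that of all genes 0.01, 0.01 and 0.02. Since the members were chosen with earlier results of these data known, the counts and medians describe them and test nothing.

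**Figure D1:**
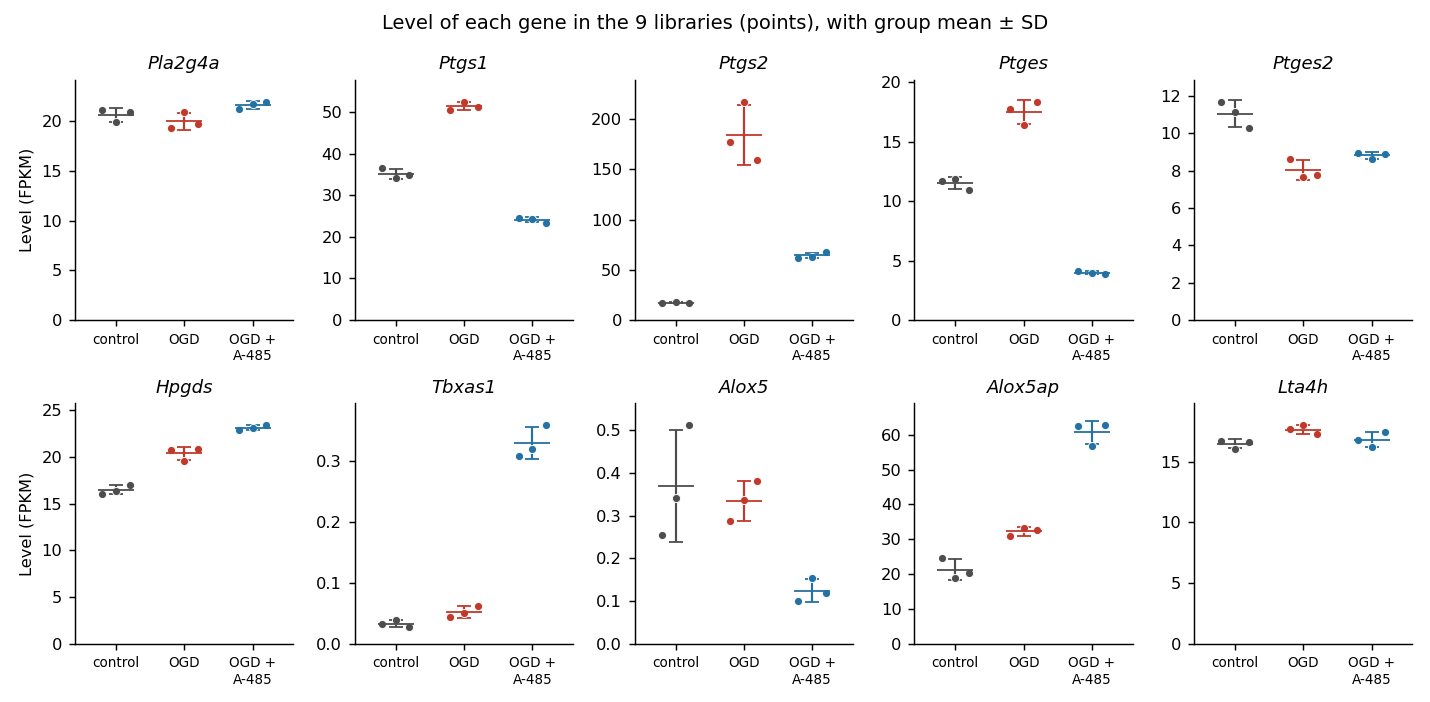
Level of each of the 10 members in FPKM (y axis, linear, starting at 0, its own scale in each panel) in the 3 groups (x axis); points are single libraries and bars the mean ± SD of 3. Ptgs1, Ptgs2 and Ptges peak in the OGD group, Alox5ap is highest in OGD + A-485 (56.8 to 62.7 FPKM), and Pla2g4a and Lta4h stay within narrow ranges.

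The first step, the release of arachidonic acid, showed little movement at the level of Pla2g4a (ENSMUSG00000056220, chromosome 1, 149829618 to 149961290, minus strand, GRCm38), which encodes cytosolic phospholipase A2 alpha. Control libraries had 21.2, 19.9 and 20.9 FPKM, OGD libraries 19.3, 20.9 and 19.7, and OGD + A-485 libraries 21.2, 21.7 and 22.0. Control and OGD overlapped, and the A-485 libraries were slightly above both. The change with OGD was -0.05 on the log2 scale, with a 95% interval of -0.14 to 0.05 (limma, adjusted p = 0.413). With A-485 against OGD it was 0.12, interval 0.02 to 0.21 (limma, adjusted p = 0.0509), below the size needed for a call. Ptgs2 lies on the same chromosome, at higher coordinates.

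Ptgs2 (ENSMUSG00000032487, chromosome 1, 150100031 to 150108227, plus strand) encodes cyclooxygenase-2, the inducible form. Control libraries had 17.2, 17.6 and 17.4 FPKM, OGD libraries 177, 218 and 159, and A-485 libraries 62.0, 63.1 and 67.6. No group overlapped another, and the OGD libraries also spread the most, from the third to the second. The change was 3.39 on the log2 scale with OGD (SE 0.10, limma, adjusted p = 2.27e-07), the largest of the 10 members. Under A-485 it was -1.51 relative to OGD (adjusted p = 3.4e-06, limma), which left a mean 3.70 times that of control (log2 change 1.88, adjusted p = 5.27e-07). Between 1055 and 12970 reads stood behind each of these values.

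Ptgs1 (ENSMUSG00000047250, chromosome 2, 36230426 to 36252272, plus strand) encodes cyclooxygenase-1, the form that many tissues express at rest. Control libraries had 36.5, 34.0 and 34.7 FPKM, OGD libraries 50.5, 52.5 and 51.2, and A-485 libraries 24.6, 24.4 and 23.4. The groups were ordered OGD, control, OGD + A-485 with clear gaps, so that, unlike Ptgs2, Ptgs1 ended below its control level. The change was 0.55 with OGD (SE 0.04, limma, adjusted p = 8.01e-06), just past the size needed for a call. A-485 lowered it by 1.09 relative to OGD and by 0.54 relative to control, that is log2 changes of -1.09 (limma, adjusted p = 1.34e-07) and -0.54 (limma, adjusted p = 3.65e-06). The 50 genes nearest to Ptgs1 had a median change of 0.07 with OGD, and 0.49 remained after it was taken off, which is under the size needed for a call. The gene overlaps the transcript Gm43621 on the other strand (0.601 FPKM), and whether reads were counted by strand is not given.

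Both cyclooxygenases carry out the same reaction, so their levels can be added and their ratio taken inside a library. The ratio needs no scaling between libraries, while the sum depends on it. Ptgs2 was 0.473, 0.516 and 0.50 times Ptgs1 in control libraries, 3.51, 4.14 and 3.11 times in OGD and 2.52, 2.59 and 2.89 times in OGD + A-485. In control cells Ptgs1 was thus the more abundant message, and in both deprived groups Ptgs2 was. Of the summed level, Ptgs2 made up 33.2% ± 0.986 (SD, n = 3) in the control group, 78.0% ± 2.46 in the OGD group and 72.7% ± 1.40 in the A-485 group. The sum itself was 52.5 ± 1.12 FPKM, 236 ± 30.6 FPKM and 88.4 ± 2.36 FPKM in the same order. The log2 ratio differed by 2.84 between OGD and control, by -0.42 between A-485 and OGD and by 2.42 between A-485 and control. No group overlapped another in the ratio, and each comparison gave p = 0.1 in an exact two-sided permutation test, the smallest that 3 against 3 libraries allow.

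**Figure D2:**
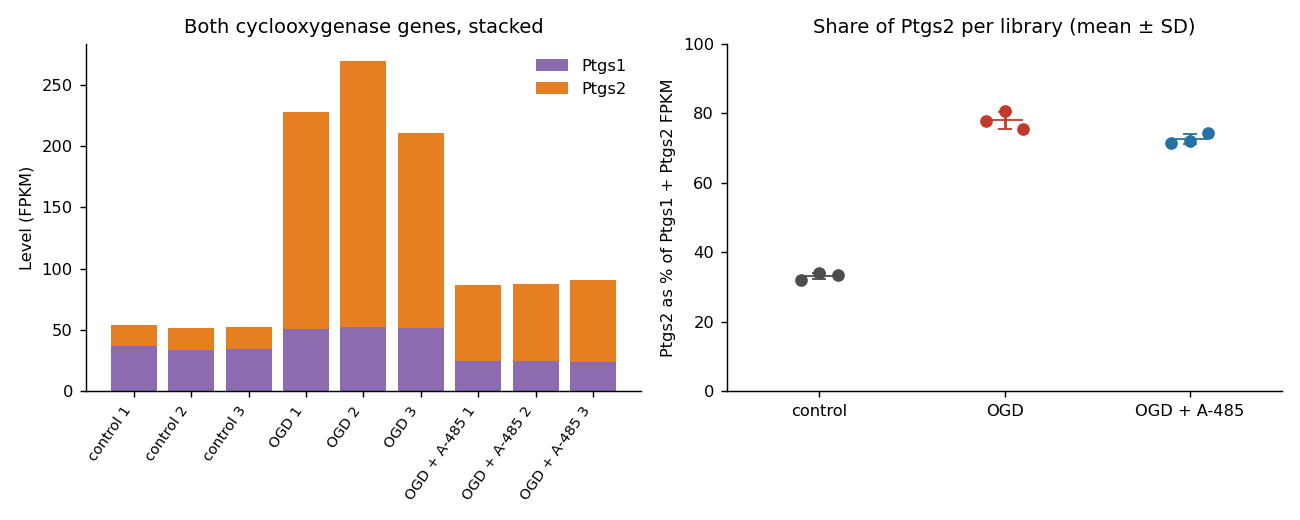
Left, stacked bars of the Ptgs1 and Ptgs2 levels in FPKM (y axis, from 0) for each of the 9 libraries (x axis); right, Ptgs2 as a percentage of the sum of both messages (y axis, 0 to 100) in the 3 groups, with points for libraries and bars for the mean ± SD of 3. Control libraries lie at 32.1 to 34.0% Ptgs2, OGD libraries at 75.7 to 80.6% and OGD + A-485 libraries at 71.6 to 74.3%.

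Prostaglandin E2 is made from prostaglandin H2 by synthases that differ in their regulation. Ptges (ENSMUSG00000050737, chromosome 2, 30889471 to 30929863, minus strand) encodes the microsomal enzyme mPGES-1, known to be induced along with cyclooxygenase-2. Control libraries had 11.7, 11.9 and 10.9 FPKM, OGD libraries 17.7, 16.5 and 18.4, and A-485 libraries 4.14, 3.95 and 3.88. All groups were apart, with the A-485 libraries lowest. The log2 change was 0.60 with OGD (SE 0.06, limma, adjusted p = 5.06e-05), -2.11 with A-485 against OGD (SE 0.06, limma, adjusted p = 3.79e-08) and -1.51 with A-485 against control (limma, adjusted p = 1.19e-07). The drop with A-485 was the largest among the 9 members tested, and the mean was 0.228 times that of OGD. A pseudogene on the same strand, Gm13400, overlaps Ptges, and its mean was 0.537, 1.43 and 2.68 FPKM in the 3 groups, so it was highest where Ptges was lowest.

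Ptges2 (ENSMUSG00000026820, chromosome 2, 32395896 to 32405772, plus strand), the gene of mPGES-2, which is mostly constitutive, took another course. Control libraries had 11.7, 11.2 and 10.3 FPKM, OGD libraries 8.64, 7.67 and 7.76, and A-485 libraries 8.96, 8.61 and 8.89. Both deprived groups were below control and overlapped each other. The change with OGD was -0.46 (SE 0.07, limma, adjusted p = 0.000467), short of the size needed for a call. It reached -0.51 without the third control library and -0.51 without the first OGD library, and was then called lower. A-485 against OGD gave 0.14 with an interval of -0.01 to 0.29 (limma, adjusted p = 0.114), and against control -0.32 (limma, adjusted p = 0.00254). In control cells Ptges and Ptges2 overlapped in level, in OGD Ptges was the higher, and in OGD + A-485 Ptges2 was.

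Hpgds (ENSMUSG00000029919, chromosome 6, 65117293 to 65144908, minus strand) encodes the hematopoietic prostaglandin D synthase, typical of mast cells, macrophages and microglia. It had 16.1, 16.4 and 17.0 FPKM in control libraries, 20.8, 19.6 and 20.9 in OGD and 22.9, 23.1 and 23.4 in OGD + A-485. The 3 groups formed separate steps, each higher than the last. All the steps were small, with log2 changes of 0.31 with OGD (limma, adjusted p = 0.000245), 0.18 with A-485 against OGD (limma, adjusted p = 0.00451) and 0.49 with A-485 against control (limma, adjusted p = 7.79e-06), so none was called. Without the third control library the last value was 0.51 and passed. After the median change of the 50 nearest genes was taken off, it was 0.19, and that of A-485 against OGD was 0.04. The pseudogene Gm17147 overlaps Hpgds on the opposite strand, with means of 8.11, 17.2 and 15.0 FPKM, and reads of the pair cannot be told apart if strand was not used.

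Tbxas1 (ENSMUSG00000029925, chromosome 6, 38875404 to 39084585, plus strand) encodes thromboxane A synthase and was barely detected. There were 4, 5 and 4 reads in control libraries, 5, 6 and 8 in OGD and 41, 46 and 47 in OGD + A-485. In FPKM this was 0.0329, 0.0386 and 0.0272, then 0.0432, 0.0507 and 0.0625, and then 0.309, 0.320 and 0.358. The A-485 libraries stood above all the others. Since Tbxas1 missed the minimum level, its test comes from the fit without that minimum, where it was called higher with A-485 against OGD (mean 6.31 times that of OGD, limma, adjusted p = 0.00648) and against control (log2 change 1.69, SE 0.24, limma, adjusted p = 0.0028). OGD alone gave 0.19 (limma, adjusted p = 1). Hipk2, on the opposite strand, overlaps the gene and had means of 7.30, 7.31 and 8.55 FPKM, far more reads than Tbxas1.

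In the leukotriene branch, Alox5ap moved and its enzyme partner hardly had a message. Alox5 (ENSMUSG00000025701, chromosome 6, 116410077 to 116461178, minus strand) encodes 5-lipoxygenase. The libraries had 14, 20 and 34 reads in control, 15, 18 and 22 in OGD and 6, 10 and 7 in OGD + A-485, or 0.255, 0.342 and 0.511, then 0.287, 0.337 and 0.381, and then 0.10, 0.154 and 0.118 FPKM. Control and OGD overlapped, and the A-485 libraries were below both. The log2 change with OGD was -0.08, with a wide interval of -0.80 to 0.64 (limma, adjusted p = 0.868). A-485 gave -0.96 against OGD (SE 0.32, limma, adjusted p = 0.0325) and -1.04 against control (limma, adjusted p = 0.0203), and both missed the threshold on the unadjusted p. At an adjusted p under 0.05 in place of the unadjusted 0.01, both were called lower, and without the first control library the second was called as well, at -1.22.

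Alox5ap (ENSMUSG00000060063, chromosome 5, 149264767 to 149288153, plus strand) encodes FLAP, which presents arachidonic acid to 5-lipoxygenase. Control libraries had 24.6, 18.8 and 20.4 FPKM, OGD libraries 30.8, 33.3 and 32.8, and A-485 libraries 62.5, 56.8 and 62.7. The groups rose in steps and did not overlap. The change was 0.61 with OGD (SE 0.09, limma, adjusted p = 0.00061), 0.91 with A-485 against OGD (limma, adjusted p = 4.72e-05) and 1.52 with A-485 against control (limma, adjusted p = 1.22e-06). It was the sole member among the 9 tested that was called higher with A-485 than in OGD. The rise ran beside that of the macrophage markers, for instance Csf1r, the receptor of the growth factor CSF1, with means of 24.2, 44.6 and 131 FPKM, and Tyrobp, a signalling adaptor, with 73.1, 80.0 and 243 FPKM. In RNA from whole cultures, fewer cells expressing a gene and less of its RNA per cell cannot be told apart.

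Lta4h (ENSMUSG00000015889, chromosome 10, 93453411 to 93484875, plus strand) encodes leukotriene A4 hydrolase, which makes leukotriene B4. It had 16.8, 16.1 and 16.6 FPKM in control libraries, 17.7, 18.0 and 17.3 in OGD and 16.8, 16.2 and 17.5 in OGD + A-485. The OGD libraries were just above control, and the A-485 libraries overlapped both groups. The log2 change was 0.10 with OGD, interval 0.00 to 0.19 (limma, adjusted p = 0.0827), -0.07 with A-485 against OGD, interval -0.16 to 0.02 (limma, adjusted p = 0.194), and 0.03 with A-485 against control (limma, adjusted p = 0.585).

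**Figure D3:**
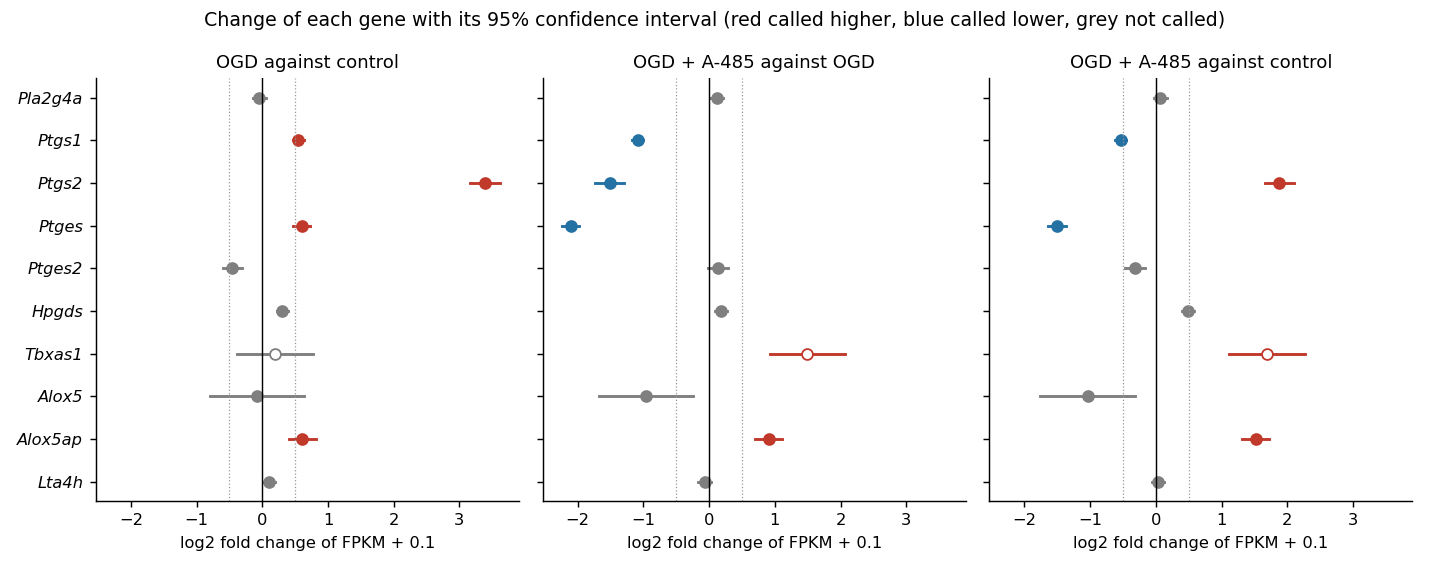
Change of each member in log2(FPKM + 0.1) (x axis) in the 3 comparisons, with points for the limma estimate and lines for its 95% interval; dotted lines mark the size of 0.5 needed for a call, red and blue mark genes called higher and lower, and the open circles of Tbxas1 come from the fit without a minimum level. Ptgs2 is furthest to the right with OGD (3.39) and Ptges furthest to the left with A-485 against OGD (-2.11), and the lines of Alox5 and Tbxas1 are the longest.

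By level, Ptgs1 was the most abundant of the 10 messages in control cells, followed by Alox5ap and Pla2g4a, whose libraries overlapped, and by Ptgs2. In OGD the order began with Ptgs2, Ptgs1 and Alox5ap without overlap. In OGD + A-485 Ptgs2 and Alox5ap led and overlapped (62.0 to 67.6 and 56.8 to 62.7 FPKM), ahead of Ptgs1. Alox5 and Tbxas1 were last in every group, with Alox5 above Tbxas1 in control and OGD and below it in OGD + A-485. Lta4h, Hpgds and Ptges2 lay between 7.67 and 23.4 FPKM throughout.

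The genes most like a member were searched among the 11898 genes that averaged 1 FPKM or more, by Pearson's r of log2(FPKM + 0.1) over the 9 libraries, which share their 3 groups, so r mainly compares 3 group levels. For Ptgs2 they were Cd93 (r = 0.998), Pvr (0.997) and Nos2 (0.996), the gene of inducible nitric oxide synthase, whose group means were 117 (control), 619 (OGD) and 281 FPKM (OGD + A-485). For Ptgs1 they were Gstt3 (r = 0.996; 1.44, 2.51 and 0.731 FPKM), Polk (0.995) and Padi2 (0.994; 11.2, 24.5 and 4.34 FPKM). As many as 249 genes reached an r of 0.95 with Ptgs2 and 282 with Ptgs1, and 12 with Alox5, whose nearest were Gm37637, Serf1 and Cops4.

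The wider pathway was followed with a list of 64 further genes of lipid supply, synthesis, breakdown and signalling. All were in the table, 1 name (Dpep2) stood on 2 rows and was left out, and 36 of the remaining 63 passed the minimum level. With OGD 7 of the 36 were called higher (19.4%) and 2 lower (5.56%), with A-485 against OGD 11 higher (30.6%) and 10 lower (27.8%), and with A-485 against control 13 higher (36.1%) and 7 lower (19.4%). The shares of all genes tested were 11.2% higher and 9.81% lower, 12.2% and 13.4%, and 17.0% and 16.6% in the same order, so the 19.4% lower against control was near that of all genes. The median log2 changes were 0.29, 0.04 and 0.18, compared to 0.01, 0.01 and 0.02 for all genes. This list too was chosen with earlier results of these data known, so its shares are a description. The shares also count Alox15, which passed the minimum level only through the A-485 group, and Ptgds, which passed it only through control.

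Among 13 tested genes of membrane lipid supply, 4 were called higher with OGD and none lower, and 6 were called lower and 2 higher with A-485 against OGD. As shares these were 30.8% and 0% with OGD, where 11.2% and 9.81% of all genes were called, and 46.2% lower and 15.4% higher with A-485, where 13.4% and 12.2% of all genes were. Pla2g5, a secreted phospholipase A2, had 36.3 ± 1.18 FPKM (SD, n = 3) in the control group, 91.9 ± 1.44 in the OGD group and 35.1 ± 1.61 in the A-485 group, and log2 changes of 1.34 and -1.39 for OGD against control and A-485 against OGD. Its relative Pla2g2e had 14.4 ± 0.966, 30.1 ± 3.02 and 15.2 ± 0.704 FPKM. Neither secreted enzyme was called with A-485 against control, and the cytosolic Pla2g4a was called in no comparison. Abhd6 (6.59, 9.73 and 4.11 FPKM) and Faah (7.13, 10.3 and 4.39 FPKM) are among the endocannabinoid hydrolases, which can free arachidonic acid. They were called higher with OGD and lower with A-485 in both its comparisons. With A-485 against OGD, Pla2g12a (log2 change -0.78) and the diacylglycerol lipase gene Dagla (-1.09) were called lower, while its paralogue Daglb (0.55) and the lipase gene Abhd12 (0.92) were called higher. Abhd12 (21.6, 23.4 and 44.3 FPKM) was thus opposite to Abhd6 and Faah with A-485, also against control (1.03).

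Of 6 other prostanoid synthase genes tested, 2 were called lower with OGD, Akr1b3 and Ptges3 (33.3%, compared to 9.81% of all genes). With A-485 against OGD 2 were called higher (33.3%) and 1 lower (16.7%), where 12.2% and 13.4% of all genes were. Against control all 6 were called, 3 higher and 3 lower (50% each), where 17.0% and 16.6% of all genes were. Of these, Cbr2 (3 to 30 reads a library) and Ptgis (5 to 29), called higher, and Ptgds (0 to 18), called lower, averaged under 1 FPKM. Ptgds, with 0.662, 0.193 and 0 FPKM, passed the minimum level only through control. Cbr2 was also among the 2 called higher against OGD. Akr1b3, an aldose reductase that can make prostaglandin F2 alpha, had 36.9 ± 1.61, 14.6 ± 0.730 and 8.78 ± 0.589 FPKM and fell in every comparison (log2 changes -1.33, -0.73 and -2.06). Ptges3, the cytosolic prostaglandin E synthase and co-chaperone p23, had 88.1, 59.1 and 61.7 FPKM (log2 change -0.58 with OGD and -0.51 with A-485 against control). So Ptges, the inducible enzyme, and Ptges3 were called in opposite directions with OGD. Cbr1, a carbonyl reductase, was higher with A-485 (2.83, 2.72 and 4.60 FPKM).

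Of the enzymes of cysteinyl leukotrienes and other lipoxygenases, 5 of 11 were tested, and with A-485 against OGD 2 were called higher and 1 lower. These were 40% and 20%, where 12.2% and 13.4% of all genes were called. Mgst2, which can join glutathione to leukotriene A4, had 6.51, 8.94 and 17.1 FPKM (log2 change 0.93 against OGD and 1.38 against control). Ltc4s, the dedicated leukotriene C4 synthase, had 0.482 ± 0.306, 0.874 ± 0.220 and 2.08 ± 0.374 FPKM and was called higher against control (2.03), on at most 36 reads. Like Alox5ap, both had their highest mean in the A-485 group, where Alox5 had its lowest. The remaining gene called higher and the one called lower fall under the level set for naming and were picked after their values were seen. Alox15 had 2, 3 and 3 reads in control libraries, 3, 0 and 0 in OGD and 31, 34 and 26 in A-485 libraries. With means of 0.0741, 0.032 and 0.826 FPKM, it passed the minimum level only through the A-485 group. Its call is therefore no support for the 40% called higher. Aloxe3, the epidermal lipoxygenase gene, had 70, 56 and 69 reads, then 73, 88 and 67, and then 25, 11 and 29, with a log2 change of -1.65 with A-485 against OGD and -1.33 against control.

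Of 5 tested genes of inactivation and transport, none was called with OGD. With A-485 against OGD 2 were called higher (40%), where 12.2% of all genes were, and against control 1 was (20%), where 17.0% were. The leukotriene B4 hydroxylase gene Cyp4f18 (log2 change 0.59) and Ptgr1, a reductase that inactivates prostaglandins and leukotriene B4 (0.50), were called higher with A-485 against OGD. The epoxide hydrolase gene Ephx1 was called higher with OGD (5.43, 15.8 and 11.9 FPKM, log2 change 1.52). Among 3 tested prostanoid receptors, 2 were called higher with A-485 against OGD (66.7%), where 12.2% of all genes were. Against control all 3 were (100%), where 17.0% of all genes were, and none was called with OGD. They include Ptger1, at 0.146, 0.292 and 0.501 FPKM on 8 to 50 reads a library, and only 3 of the 9 listed receptors were tested. Ptger4, the EP4 receptor of prostaglandin E2, had 2.24, 2.19 and 3.40 FPKM, and Ptgir, the prostacyclin receptor, had 18.1, 18.0 and 28.6 FPKM. Both were called higher with A-485 in its 2 comparisons. Cysltr1, a receptor of cysteinyl leukotrienes, rose with A-485 (1.82, 2.53 and 4.39 FPKM, log2 change 0.78 against OGD), whereas Ltb4r1, the high-affinity receptor of leukotriene B4, was called higher with OGD (0.58) and lower with A-485 against OGD (-0.84) at 18 to 39 reads a library.

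**Figure D4:**
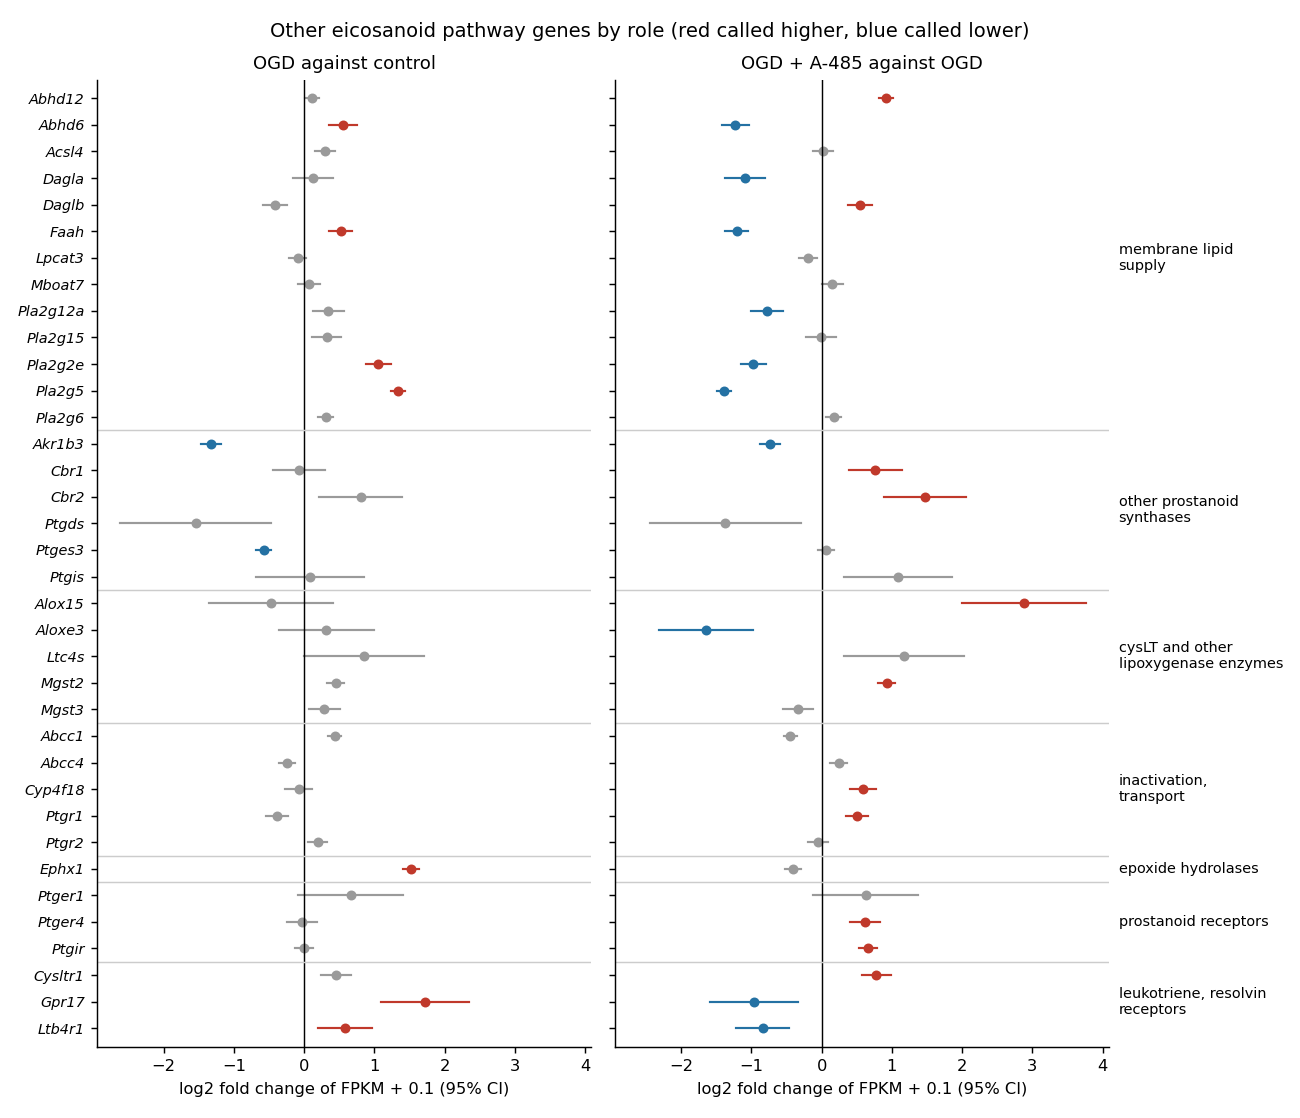
Change in log2(FPKM + 0.1) (x axis) of the 36 tested genes of the wider pathway list, grouped by role (y axis), for OGD against control (left) and A-485 against OGD (right), with points for the limma estimate and lines for its 95% interval; red and blue mark genes called higher and lower. Pla2g5 and Pla2g2e lie right of 0 with OGD (1.34 and 1.05) and left of it with A-485 against OGD (-1.39 and -0.97), and Akr1b3 lies left of 0 in both panels.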

How the data were processed

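RNA of BV2 cells was sequenced by the authors in 9 libraries (3 a group). They removed reads with adapters, undetermined bases or low quality, counted reads per gene with featureCounts and deposited FPKM values computed from gene length and read count. The labels name GRCm38 and mm10. The aligner, annotation release and strand setting are not given in the sources used here. Groups were taken from the sample titles, and all value columns were mapped.

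The 10 members, the pathway list and the marker lists were chosen with earlier results of these data known. Genes averaging 0.2 FPKM or more were tested as log2(FPKM + 0.1) with limma 3.58.1 (R 4.3.3), 1 mean per group over 9 libraries and a trended prior variance, since FPKM do not suit a count model. The change is understated for genes near the pseudocount. Calls needed p under 0.01 and a log2 change above 0.5 in size, the thresholds of the study, and adjusted p-values are Benjamini-Hochberg over all 16123 genes. The fit was tested on simulated data. The cyclooxygenase ratio was tested over libraries with an exact permutation test (scipy 1.17.1). All members were named, and of the pathway list the called genes averaging 1 FPKM or more. A few called genes below that level were named as well, with their reads. FPKM times gene length gave whole reads (tolerance 0.02) for 100% of values, with a divisor equal to a median-of-ratios size factor, so depth is that of these reads. Intervals are 95%. Promoters are RefSeq entries. Overlaps were read from the coordinates of the table. Tools were Python 3.11.15, numpy 2.4.6, pandas 2.3.3 and matplotlib 3.10.9.

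Alternatives were pseudocounts of 1 and 0.01, a minimum of 1 FPKM or none, quantile normalization, the compared groups alone, the replicate number as a block, no variance trend, an adjusted p under 0.05, limma-voom on the recovered reads, the median of 50 neighbouring genes removed, and each library left out.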

Additional observations from a re-analysis of the deposited data

How the results depend on the processing

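Over 20 settings the changes of the 9 members tested gave 537 values beside those reported, of which 520 kept their side of the threshold, 16 gained a call and 1 lost it. The sign differed in 6 of them, none called: Alox5 with OGD was 0.13 without the third control library, 0.00 without the first OGD library and 0.09 with the neighbours' median removed. The others were Lta4h with A-485 against control after quantile normalization and, with the neighbours' median removed, Lta4h with A-485 against OGD and Pla2g4a with A-485 against control, all within 0.03 of 0. The lost call was Ptgs1 with OGD, at 0.49 after the median of its neighbours was removed. The number of members called higher with A-485 against OGD was 2 with no minimum level, since Tbxas1 was then tested. The number called lower with OGD ranged from 0 to 1 when single libraries were left out, through Ptges2 without the third control or the first OGD library, and Ptges2 was also called with the neighbours' median removed (-0.54). Alox5 with A-485 was called lower in both comparisons with a pseudocount of 0.01, no minimum level, no variance trend, limma-voom or an adjusted p under 0.05, and against control also after quantile normalization and without the first control library. Changes of Ptgs2 spanned 3.26 to 3.49 with OGD and -1.61 to -1.39 with A-485 against OGD when libraries were left out.

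With the replicate number as a block the same number of members was called as without it, 4 higher and 0 lower with OGD, 1 higher and 3 lower with A-485 against OGD, and 2 higher and 2 lower against control, and over all genes 1740 and 1548, 1937 and 2109, and 2691 and 2626. The block changed no member's call. Deviations of libraries with the same number had a mean correlation of -0.0303 (-0.125 to 0.0725, 9 pairs) and others 0.0151 (18 pairs). No pairing by number was seen. With so few pairs this cannot show that same-numbered libraries were prepared apart. Counts of 4 to 47 reads limit Tbxas1 and Alox5, and 3 libraries a group limit every test.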
